A study of Homo sapiens with 4 samples.

Results

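Expression of 49 genes of the WNT signalling pathway was followed in hFOB1.19 cells during osteoblast mineralization. The genes were taken by symbol from a list of ligands, receptors, secreted antagonists, transducers and targets, and all 49 were found among the 19610 gene symbols of the mRNA table. The series holds 4 libraries of total RNA, 1 each from control cells on day 0 and from cells undergoing mineralization on days 3, 6 and 9 of differentiation. hFOB1.19 is a human fetal osteoblast line immortalized with a temperature-sensitive viral oncogene, and per the methods of the study the cells grew at the lower, permissive temperature before day 0 and at the higher one afterwards. Day of differentiation and culture temperature therefore cannot be told apart, and with 1 library per day no difference below has a replicate check or a p-value. Levels are FPKM, mapped fragments scaled to transcript length and library size, summed over the transcripts of a gene. A difference is given as a log2 ratio of FPKM + 1, a scale on which low genes differ less than in FPKM, and it was called when it was at least 2-fold in a gene with at least 1 FPKM in any library.

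WNT proteins are secreted lipid-modified ligands that bind frizzled receptors. In the canonical branch, frizzled and the co-receptors LRP5 and LRP6 stop a complex of axin, APC and the kinase GSK3B from marking beta-catenin for degradation, and beta-catenin then works with TCF/LEF factors on target genes. Other branches run through frizzled with ROR1 or ROR2 and do not need beta-catenin. Canonical WNT signalling is known to favour bone formation, and it is held back outside the cell by the SFRP, DKK and sclerostin proteins.

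The deposited FPKM carry no read counts, so the depth behind a value is unknown. The study states that RNase R, an enzyme that digests linear RNA, went into the mRNA libraries but not the circular RNA ones, the reverse of usual practice. If so, the FPKM would not be ordinary mRNA levels, and this cannot be settled here. Summed over all gene symbols, they came to between 538072 and 617857 per library, with the highest sum on day 0. Of 9 osteoblast markers, 6 reached 1 FPKM in any library, ALPL and SPP1 only through a later day. SP7, IBSP and BGLAP stayed under 1 FPKM on every day. The summed level of the 9 was 2024, 4332, 3721 and 3013 FPKM on days 0, 3, 6 and 9. Most of it on each day came from the matrix genes COL1A1 and SPARC, with 777 and 1113 FPKM on day 0. No adipocyte marker of 5 and no epithelial marker of 4 reached 1 FPKM, against 2 of 5 chondrocyte, 1 of 4 endothelial and 1 of 4 haematopoietic markers. The 5 markers of cycling cells summed to 740 FPKM on day 0 and to between 279 and 307 FPKM later, and the part of this in the differences below was not tested. In bulk RNA, fewer cells of a type and less RNA per cell cannot be told apart.

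Of the 49 WNT genes, 34 reached 1 FPKM in any library and 15 stayed below it on every day. Of the 34, 31 had at least 1 FPKM on day 0, and 3 passed only through a later day: FRZB, LEF1 and AXIN2. On day 3, 5 of the 34 were at least 2-fold higher than on day 0, which is 14.7%, against 8.13% of the 12859 genes tested. Days 6 and 9 also had 5 higher genes each, against 9.01% and 9.60% of all genes. AXIN2 was among the 5 of day 6 and FRZB among the 5 of day 9, and having passed only through a later day they could not be called lower. With a minimum of 5 FPKM, which drops both, 4 of 28 genes were higher on days 6 and 9 each, against 8.87% and 9.20% of all genes. None of the 34 was 2-fold lower on any day, while 5.30%, 6.42% and 6.52% of all genes were lower on days 3, 6 and 9, and 3.45% were lower on all of them. The median log2 ratio of the 34 genes was 0.16, 0.13 and 0.27 on days 3, 6 and 9, beside -0.08, -0.08 and -0.09 over all genes tested. All 3 comparisons rest on the same day 0 library. In total 9 genes were 2-fold higher on any of the 3 days. The share of all genes by this looser rule was not computed, so the 9 cannot be set against the shares of single days. The 9 were the secreted antagonists SFRP1, FRZB, DKK1 and DKK3, the receptors FZD1, FZD5, FZD8 and ROR2, and the feedback target AXIN2. Only SFRP1 and DKK3 were past the limit on all 3 days, 2 of 34 genes, against 5.93% of all genes. This count depends on the settings. With 0.1 FPKM added in place of 1, FZD1, FZD5 and AXIN2 were also past the limit on all 3 days. After either rescaling of the FPKM, FZD1 was, and from the leading transcript alone DKK3 was not. The shares of all genes on all 3 days were not computed for these settings.

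**Figure D1:**
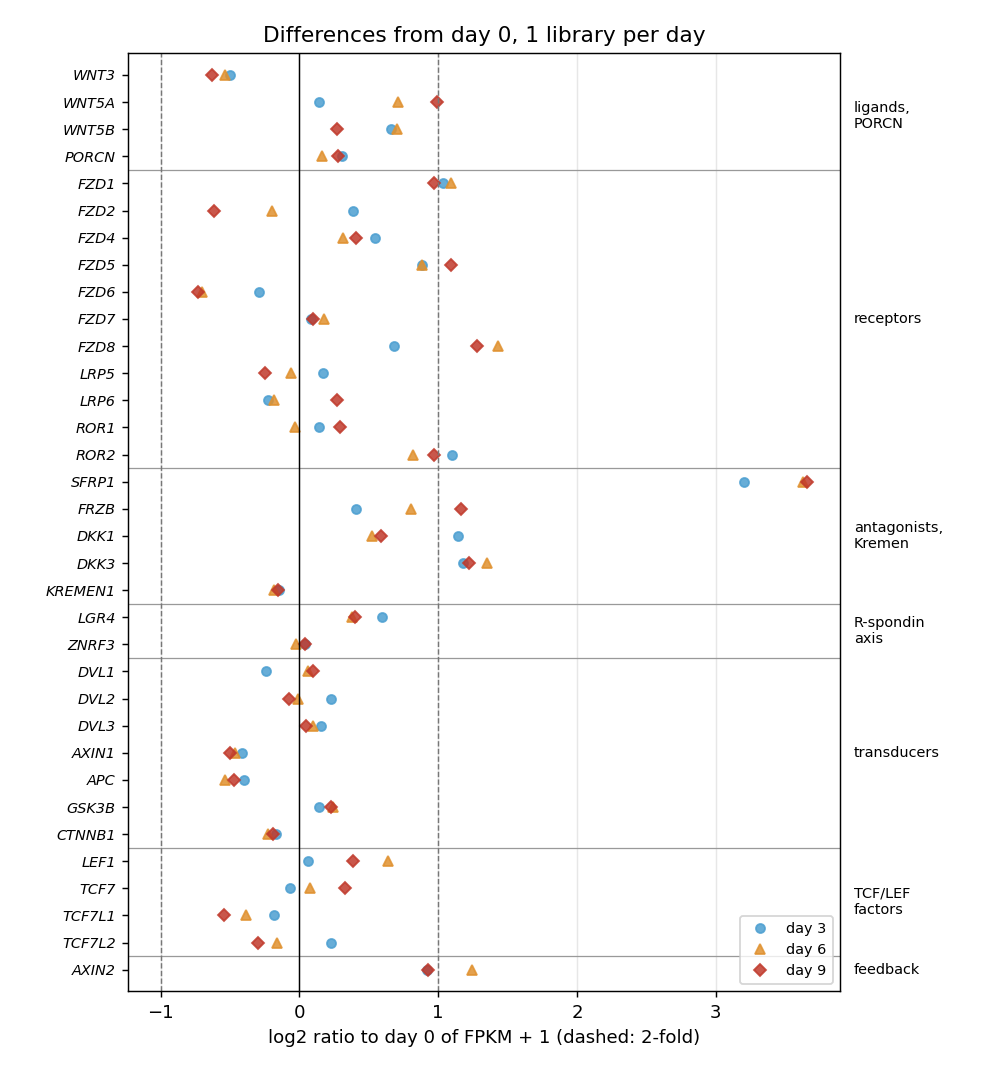
Log2 ratio to day 0 of FPKM + 1 for the 34 WNT genes with at least 1 FPKM in any library, by role, on days 3, 6 and 9 (1 library each, no error bars). Dashed lines mark 2-fold; SFRP1 stands apart at 3.20, 3.63 and 3.66, and no gene lies past the limit on the lower side.

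The largest difference was that of SFRP1. SFRP1 (ENSG00000104332), a secreted frizzled-related protein that binds WNT ligands, had 1.95 FPKM on day 0 and 26.1, 35.5 and 36.3 FPKM on days 3, 6 and 9. The low value was thus that of day 0 alone, and days 6 and 9 were nearly level. On the FPKM scale the gene was 13.4-fold, 18.2-fold and 18.7-fold higher than on day 0. Its log2 ratio of 3.20 on day 3 was the 33rd highest of the 12859 genes, and those of days 6 and 9 were the 29th and 47th highest. Nearly all of it came from the transcript ENST00000220772, which carried between 97.9% and 99.5% of the SFRP1 FPKM on each day.

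DKK3 (ENSG00000050165), a member of the Dickkopf family whose role in WNT signalling is less settled than that of DKK1, was the most abundant antagonist on every day. It had 79.8 FPKM on day 0 and 182, 205 and 188 FPKM on days 3, 6 and 9, with log2 ratios of 1.18, 1.35 and 1.23. Taken from its leading transcript alone, the ratios on days 3 and 9 were 0.94 and 0.97, just within the limit. DKK1, which blocks the co-receptors LRP5 and LRP6, had 40.7, 91.2, 59.0 and 61.5 FPKM from day 0 to day 9. It was highest on day 3 (log2 ratio 1.14), and on days 6 and 9 it lay within the limit, at 0.53 and 0.58. FRZB, a further frizzled-related protein, had 0.435, 0.903, 1.5 and 2.22 FPKM from day 0 to day 9. Each library was higher than the one before, and the log2 ratio of 1.16 passed the limit on day 9 only. FRZB stayed far under SFRP1, which had 16.4 times its FPKM on day 9.

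**Figure D2:**
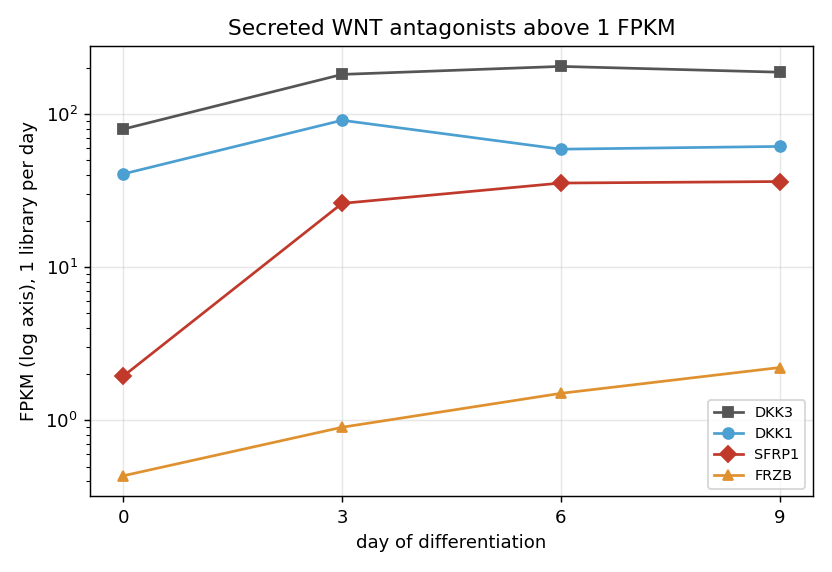
FPKM (log axis) of the 4 secreted WNT antagonists above 1 FPKM, against the day of differentiation, 1 library per day. SFRP1 goes from 1.95 to 26.1 FPKM by day 3, DKK3 is the highest on each day, and DKK1 is highest on day 3 at 91.2 FPKM.

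The other secreted antagonists were hardly detected. SOST, which encodes the osteocyte product sclerostin, was listed at 0 in all 4 libraries. SFRP2, SFRP4 and WIF1 did not exceed 0.273 FPKM on any day, and DKK2 had between 0.249 and 0.653 FPKM. KREMEN1, a receptor that takes up DKK1 together with LRP6, had between 4.60 and 5.36 FPKM with the highest value on day 0. Summed, the 9 secreted antagonists had 123 FPKM on day 0 and 301, 302 and 289 FPKM on days 3, 6 and 9. DKK3 and DKK1 together made up most of this on each day, and the share of SFRP1 was 1.58% on day 0 and 12.6% on day 9.

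Upstream sequence is shown for 4 of the 9 genes past the limit, DKK1 and the frizzled genes FZD1, FZD5 and FZD8. All 9 were higher than on day 0, so the direction does not set these 4 apart. The sequences of FRZB and ROR2, also past the limit, were available but are not shown. The RefSeq table of promoters (build GRCh38.p14) matched 34 of the 49 genes. Each sequence is the 250 bases before the annotated start of the gene, 5′ to 3′ on the strand of the gene. Capitals mark, on either strand, the TCF/LEF core CTTTGA, the GC box GGGCGG and the TATA box TATAAA.
DKK1 (chr10:52314031-52314280, plus strand): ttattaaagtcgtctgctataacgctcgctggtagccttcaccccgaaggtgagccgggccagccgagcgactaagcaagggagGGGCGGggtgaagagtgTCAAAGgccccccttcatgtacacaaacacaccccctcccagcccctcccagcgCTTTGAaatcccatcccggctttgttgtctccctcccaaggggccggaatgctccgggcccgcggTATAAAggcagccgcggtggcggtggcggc
FZD1 (chr7:91264183-91264432, plus strand): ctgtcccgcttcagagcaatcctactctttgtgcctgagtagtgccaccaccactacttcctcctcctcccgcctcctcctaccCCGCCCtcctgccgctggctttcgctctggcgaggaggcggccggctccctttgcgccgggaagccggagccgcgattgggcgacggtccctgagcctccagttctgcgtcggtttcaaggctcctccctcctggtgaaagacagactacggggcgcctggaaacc
FZD5 (chr2:207769907-207770156, minus strand): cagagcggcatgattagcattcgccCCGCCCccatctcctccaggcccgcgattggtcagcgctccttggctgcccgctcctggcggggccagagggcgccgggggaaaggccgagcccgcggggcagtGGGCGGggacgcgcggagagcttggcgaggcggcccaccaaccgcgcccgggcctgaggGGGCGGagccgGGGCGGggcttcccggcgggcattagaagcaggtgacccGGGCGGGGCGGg
FZD8 (chr10:35642297-35642546, minus strand): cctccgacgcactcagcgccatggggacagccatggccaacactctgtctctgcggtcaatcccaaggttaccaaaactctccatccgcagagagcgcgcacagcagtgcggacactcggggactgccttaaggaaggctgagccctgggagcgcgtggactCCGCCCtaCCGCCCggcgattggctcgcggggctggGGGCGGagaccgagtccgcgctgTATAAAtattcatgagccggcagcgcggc
DKK1 holds the TCF/LEF core 2 times, with first letters 149 and 95 bases before the start, and a TATA box 30 bases before it. FZD8 has a TATA box 29 bases before its start and 3 GC boxes, FZD5 has 6 GC boxes and no TATA box, with the last pair overlapping by 1 letter, and FZD1 has 1 GC box. Over the same 250 bases, the TCF/LEF core is found in 11.2% of all 35116 promoters, the GC box in 42.6% and the TATA box in 10.7%. The 34 WNT genes have 42 promoters in the table, of which 2 (DKK1 and PORCN) hold the TCF/LEF core, 29 a GC box and 4 a TATA box. A match is a description of the letters and not evidence of a bound factor.

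WNT5A and WNT5B, which act mainly without beta-catenin, made up nearly all RNA of the 8 ligands in the list. Ligands outside the list, such as WNT2B, are not in this sum. Together they had 94.4% of the summed FPKM of the 8 ligands on day 0 and between 96.4% and 97.1% later. WNT5A (ENSG00000114251) had 41.1, 45.4, 68.0 and 82.8 FPKM on days 0, 3, 6 and 9. It was higher in each library than in the one before, and its log2 ratio of 0.99 on day 9 lay just within the limit. It was past the limit, at 1.06 or 1.09, after either rescaling of the FPKM, and 0.52 from the leading transcript alone. WNT5B had 42.4, 67.4, 69.8 and 51.5 FPKM, with log2 ratios of 0.66, 0.71 and 0.27. The pair was thus level on day 0, at a WNT5A to WNT5B ratio of 0.969, WNT5B was ahead on day 3, and WNT5A was ahead on day 9, at a ratio of 1.61.

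WNT3, a canonical ligand, was the only other one of the 8 above 1 FPKM. It had 3.82 FPKM on day 0 and 2.41, 2.32 and 2.11 FPKM later, so day 0 was highest, and its log2 ratios of -0.50, -0.54 and -0.63 did not reach the limit. WNT2, WNT7B, WNT10B, WNT11 and WNT16 stayed at or under 0.773 FPKM on every day. WNT2 was listed at 0 on day 0 and had 0.570, 0.242 and 0.773 FPKM later, for which no fold is given. WNT10B, a canonical ligand linked to bone formation, had between 0.479 and 0.739 FPKM. WNT7B had between 0.276 and 0.602 FPKM, WNT11 at most 0.285 and WNT16 at most 0.225. PORCN, the enzyme that adds the lipid to WNT proteins, had between 5.49 and 7.03 FPKM with the lowest value on day 0. The summed FPKM of the 8 ligands was 88.5 on day 0 and 117, 142 and 139 on days 3, 6 and 9.

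**Figure D3:**
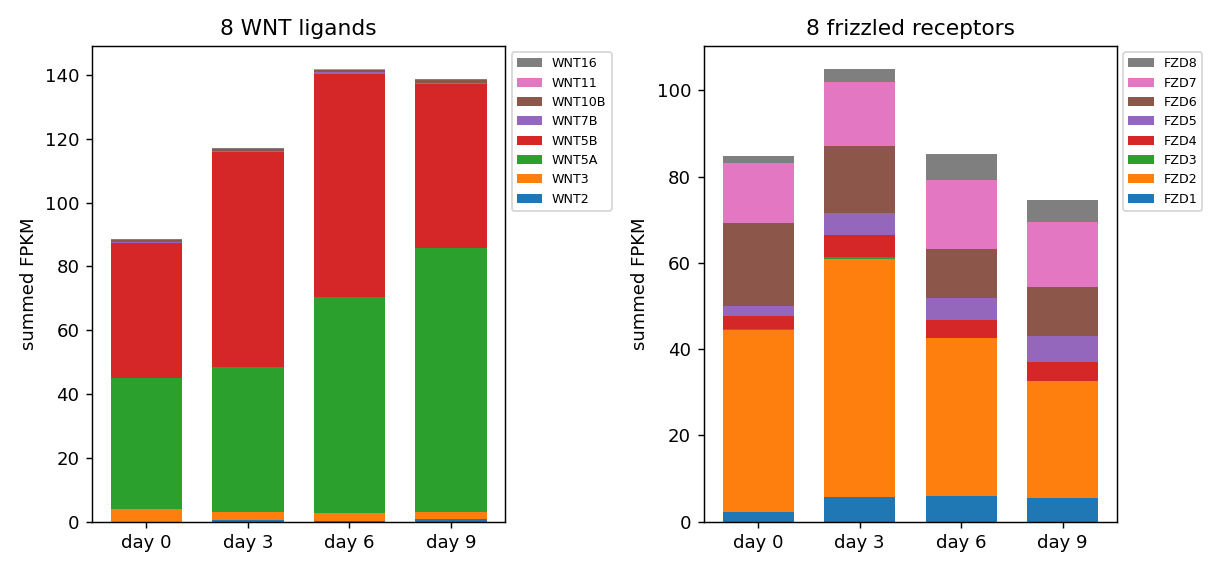
Summed FPKM of the 8 WNT ligands (left) and the 8 frizzled receptors (right) on each day, 1 library per day, with 1 colour per gene in stacks that start at 0. WNT5A and WNT5B fill at least 94.4% of each ligand bar, and FZD2 goes from 49.6% of the frizzled bar on day 0 to 36.4% on day 9.

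Among the frizzled receptors, FZD1, FZD5 and FZD8 passed the limit on at least 1 day, all on the higher side. FZD8 had 1.58 FPKM on day 0 and 3.15, 5.97 and 5.26 FPKM on days 3, 6 and 9. Its log2 ratios were 0.68, 1.43 and 1.28, past the limit from day 6. FZD1 had 2.25 FPKM on day 0 and 5.66, 5.92 and 5.38 FPKM later. The later days were alike, with log2 ratios of 1.03, 1.09 and 0.97, so that day 9 fell just short of the limit. FZD5 had 2.32, 5.11, 5.12 and 6.06 FPKM from day 0 to day 9 and passed the limit on day 9 only (0.88, 0.88 and 1.09). In FPKM it was 2.21-fold higher on days 3 and 6, and with 0.1 added in place of 1 it was past the limit on both, at 1.11. For these 3 receptors the day 0 library was the lowest, and together their share of the summed frizzled FPKM was 7.25% on day 0 and 22.4% on day 9.

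FZD2, the most abundant frizzled on every day, had 42.1, 55.3, 36.6 and 27.2 FPKM from day 0 to day 9. It was highest on day 3 and lowest on day 9, with log2 ratios to day 0 of 0.38, -0.20 and -0.61. Between days 3 and 9 its level was 2.03-fold lower in FPKM and its log2 ratio of -0.998 was just within the limit. FZD6 had 19.2, 15.5, 11.4 and 11.2 FPKM, with the highest value on day 0 and a log2 ratio of -0.73 on day 9. FZD7 was nearly level, between 14.0 and 16.0 FPKM. FZD4 had between 3.10 and 4.97 FPKM, and FZD3 did not exceed 0.488. Summed, the 8 frizzled genes had 84.8, 105, 85.2 and 74.7 FPKM on days 0, 3, 6 and 9.

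ROR2, a receptor tyrosine kinase for WNT5A, had 2.86 FPKM on day 0 and 7.26, 5.80 and 6.56 FPKM later. Day 0 was the lowest library, and the log2 ratios were 1.10, 0.82 and 0.97, past the limit on day 3 only. The related ROR1 had between 7.48 and 9.64 FPKM, with log2 ratios between -0.04 and 0.29. The canonical co-receptors also differed little between days. LRP5 had 14.8, 16.8, 14.2 and 12.3 FPKM and LRP6 had 20.8, 17.6, 18.2 and 25.2 FPKM from day 0 to day 9. The log2 ratios of LRP5 and LRP6 to day 0 lay between -0.25 and 0.27.

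Of the R-spondin axis, which sets the number of frizzled receptors at the cell surface, LGR4 and ZNRF3 were above 1 FPKM. LGR4, an R-spondin receptor, had 10.1 FPKM on day 0 and 15.8, 13.5 and 13.7 FPKM later, with log2 ratios of 0.59, 0.38 and 0.40. ZNRF3, a ligase that removes frizzled from the membrane, had between 3.52 and 3.74 FPKM. Its relative RNF43 had 0.206, 0.412, 0.415 and 0.544 FPKM from day 0 to day 9. The ligand RSPO3 had 0.0702 FPKM on day 0 and 0.580 on day 9, and RNF43 and RSPO3 are too low for a call. A further R-spondin ligand outside the 49 genes, RSPO4, had 0.605, 1.42, 2.20 and 3.24 FPKM from day 0 to day 9, higher in each library than in the one before. Its log2 ratios were 0.59, 0.996 and 1.40, past the limit on day 9 only, and it was named after its values were seen.

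The 7 transducers were all expressed, and none was past the limit on any day. Of all genes, 8.13%, 9.01% and 9.60% were higher and 5.30%, 6.42% and 6.52% lower on days 3, 6 and 9. Among 7 genes a count of 0 is near these shares, so it does not set the transducers apart. CTNNB1 (ENSG00000168036), which encodes beta-catenin, had 133 FPKM on day 0 and 118, 113 and 116 FPKM later. It had the highest level of the 49 genes on day 0 and the second highest, after DKK3, on days 3, 6 and 9. GSK3B had 41.1 FPKM on day 0 and 45.3, 48.8 and 48.3 later. AXIN1 had 15.7, 11.5, 11.1 and 10.8 FPKM and APC, its partner in the destruction complex, 24.0, 17.9, 16.2 and 17.0 FPKM. In AXIN1 and APC day 0 was the highest library, with log2 ratios between -0.54 and -0.40. The dishevelled genes, which pass the signal on from frizzled, were nearly level. DVL1 had between 23.7 and 30.2 FPKM, DVL2 between 23.7 and 29.6 and DVL3 between 32.8 and 36.6. The median log2 ratio of the 7 transducers was -0.17, -0.01 and -0.08 on the later days.

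**Figure D4:**
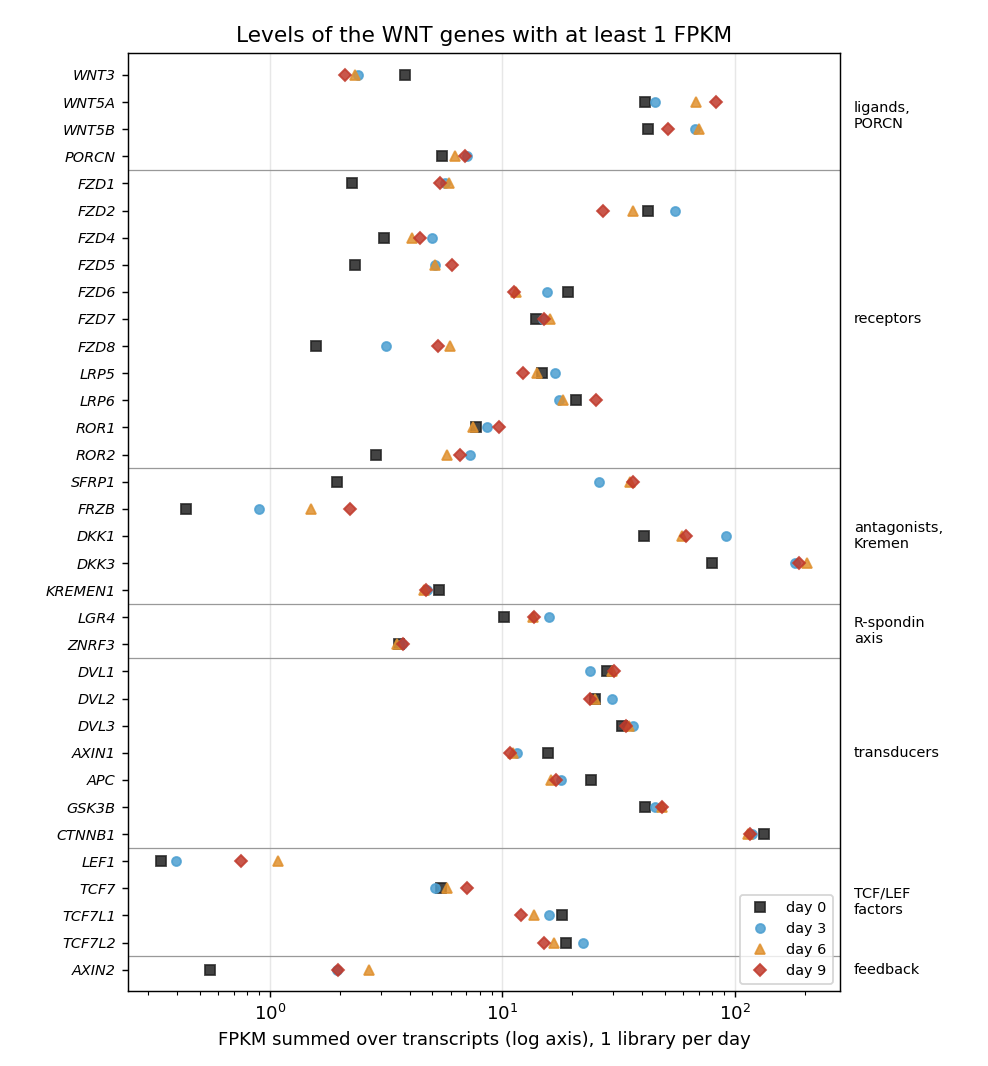
FPKM (log axis) of the 34 WNT genes with at least 1 FPKM in any library, by role, with 1 marker per day and 1 library per day. The markers of the transducers lie close together, as in DVL3 between 32.8 and 36.6 FPKM, while those of SFRP1 lie between 1.95 and 36.3 FPKM.

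No TCF/LEF transcription factor passed the limit with 1 added to the FPKM. They are 4 genes, too few for this count to be set against the shares of all genes. TCF7L2 had 18.8, 22.2, 16.7 and 15.0 FPKM from day 0 to day 9. TCF7L1, known mostly as a repressor, had 18.1, 15.9, 13.7 and 12.1 FPKM, lower in each library than in the one before, with a log2 ratio of -0.55 on day 9. TCF7 had 5.43, 5.13, 5.78 and 7.08 FPKM, and LEF1 had 0.340, 0.395, 1.08 and 0.749 FPKM. LEF1 was thus above 1 FPKM on day 6 only, where its log2 ratio was 0.64. In FPKM it was 3.19-fold higher than on day 0, and with 0.1 in place of 1 added to the FPKM it was past the limit on day 6.

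AXIN2, a widely used readout of canonical signalling that feeds back on the pathway, had 0.554 FPKM on day 0 and 1.94, 2.68 and 1.96 FPKM later. Day 0 was the lowest library, and the log2 ratio of 0.92, 1.24 and 0.93 was past the limit on day 6 only. With 0.1 added to the FPKM in place of 1, the ratios of days 3 and 9 were 1.64 and 1.65, past the limit. The FPKM of AXIN2 were spread over 8 listed transcripts, with at most 0.841 FPKM in any of them. The one with the highest mean, ENST00000618960, had 0.326, 0.316, 0.368 and 0.841 FPKM, and from it alone the ratio on day 6 was 0.04. The naked cuticle genes NKD1 and NKD2, also feedback targets, did not exceed 0.123 and 0.462 FPKM, and both had their lowest value on day 0.

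Day 9 was also compared with day 3, both after the shift in culture. None of the 34 genes was past the limit in either direction, against 1.39% of all genes that were higher and 0.863% that were lower. The median log2 ratio of the 34 genes was -0.02, beside 0.00 over all genes. The largest values were 0.85 for WNT5A, 0.76 for FRZB and 0.60 for FZD8 on the higher side. On the lower side they were -0.998 for FZD2, -0.56 for DKK1 and -0.53 for TCF7L2. SFRP1 had 0.46 and DKK3 0.05.

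**Figure D5:**
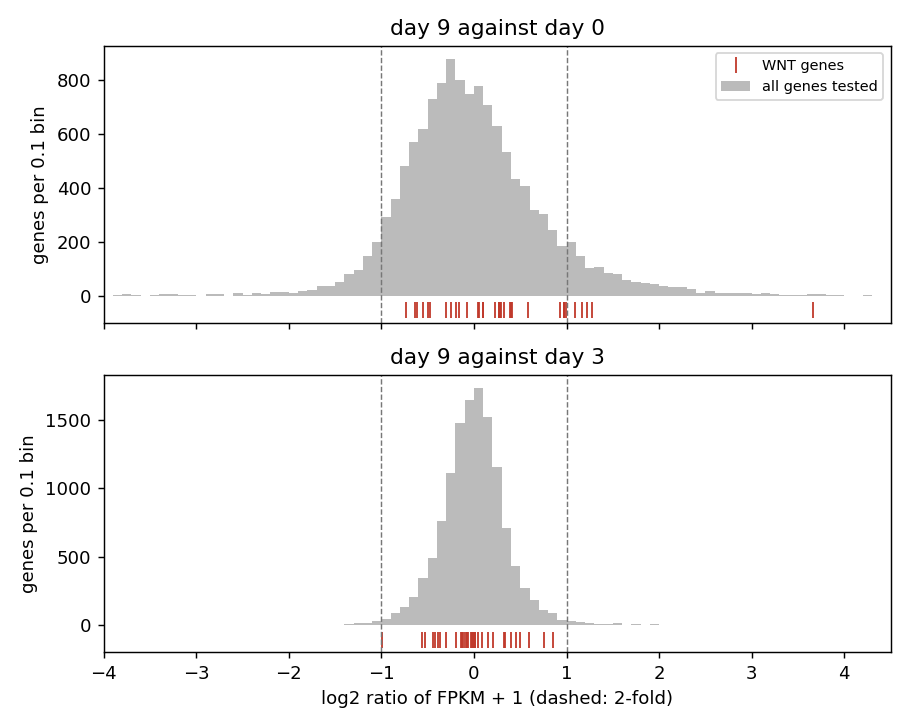
Number of genes per bin of 0.1 in the log2 ratio of FPKM + 1, for day 9 against day 0 (top) and day 9 against day 3 (bottom), over the 12859 genes tested, with the 34 WNT genes as red ticks. Genes beyond the drawn axis are not shown; against day 0, 5 ticks lie past the upper dashed 2-fold line, and against day 3 none lies past either line.

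The transcript that led a gene was mostly the same on days 0 and 9. Of 23 WNT genes with several listed transcripts and at least 1 FPKM in every library, 20 had the same leading transcript on both days, and CTNNB1, ROR1 and TCF7L2 did not. These shares are estimates from reads that transcripts of a gene have in common, and no error comes with them. The values of ROR1, TCF7L2, CTNNB1 and AXIN1 that follow were chosen after they were seen. For ROR1, whose sum was nearly level, ENST00000371079 carried 55.2%, 23.8%, 16.5% and 0.0561% of the FPKM on days 0, 3, 6 and 9, and ENST00000371080 carried 36.6%, 64.0%, 61.5% and 71.6%. The share of the first was lower in each library than in the one before. For CTNNB1, ENST00000396185 carried 41.9% on day 0 and 18.6%, 16.1% and 14.1% later, and ENST00000396183 carried 38.1%, 52.0%, 51.2% and 58.4%. For AXIN1, ENST00000262320 carried 11.8% on day 0 and 28.3%, 38.5% and 38.8% later. For TCF7L2, with 18 listed transcripts, ENST00000538897 led on day 0 with 23.6% and carried 8.45% on day 9. ENST00000369389 led on day 9 with 25.1% and carried 21.1% on day 0. A further one, ENST00000536810, which led on neither day, carried 0.000921% on day 0 and between 18.5% and 21.8% later. Except in ENST00000369389, the day 0 library stood apart from the later ones in each of these, but this did not hold in every gene. In all, 9 of the 23 genes had a transcript whose share ranged over more than 20 percentage points. Neither this count nor the 20 of 23 above was computed over all genes with several transcripts. Whether they are unusual is therefore not known. Of the rest of the 9, APC and ZNRF3 were also chosen after their values were seen. ENST00000508376 of APC carried 13.3%, 10.9%, 0.0146% and 25.9% on days 0, 3, 6 and 9. ENST00000402174 of ZNRF3 carried 28.8%, 31.2%, 7.10% and 21.2%, and in both day 6 was lowest.

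Of 89 further genes, 88 were listed and 62 reached 1 FPKM. Of these 62, 6, 8 and 10 were 2-fold higher on days 3, 6 and 9, beside 8.13%, 9.01% and 9.60% of all genes. In this list, 7 of the 62 passed the minimum only through a later day, and VANGL1 alone was lower, on day 9, with a log2 ratio of -1.12 (named after its value was seen). Of all genes, 5.30%, 6.42% and 6.52% were lower on days 3, 6 and 9. The median log2 ratio of the 62 was 0.35, 0.28 and 0.23. The 4 past the limit on all 3 days were all higher, beside 5.93% of all genes that were. TNFRSF11B, the decoy receptor for RANKL and a reported WNT target, had 2.54 FPKM on day 0 and 20.2, 24.9 and 26.5 later. IGFBP4, an IGF-binding protein also reported to hold back canonical WNT signalling, had 134, 531, 474 and 511 FPKM. TLE2, a co-repressor of TCF/LEF factors, had 0.985 FPKM on day 0 and 7.85, 6.27 and 3.51 later. PRICKLE2, of the planar polarity branch, had 8.27 FPKM on day 0 and 23.3, 22.5 and 28.9 later. Of 14 reported WNT target genes, 11 reached 1 FPKM, and their log2 ratio to day 0 was above 0 for all 11 on each of the 3 days, with medians of 0.56, 0.71 and 0.65. Above 0 were 5770, 5803 and 5767 of the 12859 genes on days 3, 6 and 9. The list of targets was chosen with earlier results of these data known, and all 3 days rest on the same day 0 library. These values are thus no test of WNT activity. Past the limit were 1 of the 11 on day 3 and 4 on days 6 and 9, to be read against the same shares of all genes, and 1 of the 11 passed the minimum only through a later day. Of the 11 further WNT ligands, WNT2B and WNT4 alone reached 1 FPKM. WNT2B had 3.65, 5.83, 3.54 and 3.10 FPKM from day 0 to day 9, and WNT4 had between 1.15 and 1.74.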

How the data were processed

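RNA of hFOB1.19 cells was sequenced on each of 4 days of differentiation, 1 library per day, and columns were matched to samples by the day in their titles. The authors removed ribosomal RNA, and their text states RNase R treatment for mRNA libraries, the reverse of usual practice and possibly swapped. Reads were aligned with Bowtie and TopHat. The submitters' processing notes list Bowtie 0.12.2 and mm8, a mouse build, while the table holds human gene IDs. The program behind the FPKM and its build are not given in the sources used here. The authors deposited FPKM per transcript for 79798 mRNA transcripts, which were summed per symbol. Of the 19610 symbols, 17 cover more than 1 gene ID, none of them a WNT gene described here.

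Log2 ratios were taken after 1 FPKM was added, and a call required 2-fold and at least 1 FPKM in any library, over all genes. With 1 library per day no test was made, so values have no error and the depth behind them is unknown. Genes and lists were chosen with earlier results of these data known. Values were given for genes past 2-fold in any comparison, with at least 10 FPKM, or in a role group where fewer than 3 qualify. They cover all days, or for some of these genes only a range, a highest value or part of the days. Further pathway genes were named when past 2-fold on all 3 days. Alternatives changed the FPKM added, the scaling, the transcripts, the minimum and the limit. CircRNA counts, which carry no gene names, and 9 tables of the authors' own comparisons (fold changes, p-values, q-values) were not used. Python 3.11.15, numpy 2.4.6, pandas 2.3.3 and matplotlib 3.10.9 were used.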

Additional observations from a re-analysis of the deposited data

How the results depend on the processing

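No paired analysis was possible because each day has 1 library. Of 416 log2 ratios of 26 WNT genes recomputed with 0.1 FPKM added, 2 rescalings or the leading transcript alone, 396 stayed on the same side of the 2-fold limit, 17 moved past it, 3 moved within it, and none past the limit turned its sign. Among all 34 genes, the sign turned under a rescaling for 1, 4 and 1 genes on days 3, 6 and 9 and for 5 genes between days 3 and 9, all with a log2 ratio of at most 0.0784 in size. With 0.1 added, 8 genes were higher than day 0 on day 6 (FRZB, FZD5 and LEF1 added), against 12.6% of all genes. On day 9, 9 were higher (AXIN2, FZD1, ROR2 and WNT5A added), against 12.8% of all genes. Between days 3 and 9, 1 was higher (FRZB) and 1 lower (FZD2), against 2.59% and 2.41% of all genes. After rescaling by median of ratios or by upper quartile, 8 were higher on day 9, with FZD1, ROR2 and WNT5A added to the same 5. The shares of all genes higher on day 9 were then 10.3% and 10.6%. By upper quartile 1, FZD2, was lower between days 3 and 9, against 0.93% of all genes. The upper quartile moved the median of all genes by 0.12 on days 3 and 6, and of all calls 72.2% and 70.3% were then higher, against 60.6% and 58.4%. A 1.5-fold limit, looser by construction, gave 10, 11 and 9 higher genes on days 3, 6 and 9. The shares of all genes were then 17.4%, 18.0% and 18.1%. It gave 1 lower gene on day 6 and 3 on day 9, against 20.1% and 20.4% of all genes. Between days 3 and 9 it gave 3 higher and 1 lower, against 4.92% and 5% of all genes. A 3-fold limit left 1 gene, SFRP1, on each of the 3 days, against 3.10%, 3.66% and 4.04% of all genes. Every other count of genes past the limit in a single comparison was within 1.5 times its value. The cause of the other changes was not tested.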

Other observations

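In the separate table of lncRNAs, 2 RNAs are named after a WNT gene of the list, and by their type both lie in introns on the strand of the gene. Reads from unspliced RNA of the gene therefore cannot be told apart from theirs. TCF7L1-IT1 had 1.26, 1.38, 1.75 and 0.193 FPKM on days 0, 3, 6 and 9, while TCF7L1 itself had 18.1, 15.9, 13.7 and 12.1 FPKM. ZNRF3-IT1 was listed at 0 on day 0 and had 1.11, 0.521 and 0.182 FPKM later, while ZNRF3 stayed between 3.52 and 3.74 FPKM. Of the further pathway genes, 4 have such an RNA. DACT3-AS1 had 0.152, 0.194, 0.553 and 0 FPKM and TNKS2-AS1 had 0.603, 0, 0 and 1.32 FPKM on days 0, 3, 6 and 9. RHOA-IT1, of the same intronic type as above, had 1.39, 1.42, 0.842 and 1.03 FPKM. PRICKLE2-AS1, an antisense RNA, had 1.08, 1.84, 2.48 and 3.42 FPKM and alone was higher in each library than in the one before. PRICKLE2 itself had 8.27, 23.3, 22.5 and 28.9 FPKM, highest on day 9 but not higher in each library. The libraries were made with a directional kit, which keeps the strand, but whether the counting used strand is not given in the sources used here. If it did not, reads of PRICKLE2 and of its antisense RNA cannot be told apart.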
